A study of Mus musculus with 17 samples.

Results

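The nuclear genes of oxidative phosphorylation were described in mouse bile duct, in 17 RNA-seq libraries made for work on cholangiocarcinoma of the extrahepatic bile ducts. They were taken by name from the authors' count table: protein-coding genes whose names start with Ndufa, Ndufb, Ndufc, Ndufs or Ndufv (but not Ndufaf), Uqcr, Cox4 to Cox8 or Atp5, with Sdha, Sdhb, Sdhc, Sdhd and Cycs. This gave 86 of 43346 genes, of which 82 had enough counts to be tested, among 19412 tested genes in all. The labels name the tissue, bile duct, for every sample and give no strain, age, genotype, treatment or disease state. Each count column carries 1 of 6 codes (R62848, R62850, R63289, R63494, R63496 and R63500) and a running number, and no source used here says what the codes mean or which column belongs to which sample. Libraries are therefore named by column, with 3 per code and 2 for R63494. No conditions could be compared. The labels do not say whether libraries came from separate animals, so p-values between codes measure only the spread between these libraries, which may be technical.

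Oxidative phosphorylation makes most of the ATP of many resting cells at the inner mitochondrial membrane. Complex I (NADH dehydrogenase) and complex II (succinate dehydrogenase, which is also an enzyme of the citric acid cycle) pass electrons to ubiquinone, complex III (the cytochrome bc1 complex) passes them to cytochrome c, and complex IV (cytochrome c oxidase) passes them to oxygen. Complex V, the ATP synthase, uses the proton gradient that complexes I, III and IV build. A few core subunits are encoded in the mitochondrion's own genome and all others in the nucleus, so the nuclear genes studied here supply only part of each complex except complex II. The 13 mitochondrially encoded subunits were listed at 0 counts in every library, so the 2 genomes could not be set side by side.

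Promoters of such genes are known for binding sites of nuclear respiratory factor 1 (NRF1) and of the ETS family factor GABP, also called NRF2. RefSeq promoters on GRCm38.p6 were matched by symbol for 68 of the 86 genes, and the 250 bases before each start were searched on both strands. The NRF1 letters, GCGCA followed at once by its reverse complement TGCGC, were in 4 of the 68 (5.88%), those of Atp5g2, Atp5k, Cox6a1 and Ndufa11, against 0.877% of all 27025 genes in the table of promoters and 1.62% of its 12329 tested genes. The ETS letters CCGGAAG were in 12 of 68 (17.6%), against 7.83% and 13.4%. The YY1 letters AAGATGGC were in 1 of 68 (1.47%), against 1.83% and 2.21%. Core letters of the hypoxia response element, ACGTG or GCGTG, were in 36 of 68 (52.9%), against 41.5% and 57.1%. Ndufa4l2 and Cox4i2 had no matched promoter and were not searched. A match is a string of letters, not a measured binding site. The stretch before Cox6a1, a highly expressed complex IV subunit, is shown because it holds both the NRF1 and the ETS letters, that before Atp5k, a small ATP synthase subunit, because it holds the NRF1 letters alone of the first 3, and that before Ndufa4 because this gene had the widest tested difference between codes among the abundant members and holds none of the 4 motifs. Capitals mark the NRF1 letters (in Cox6a1 also the ETS letters, which lie on the other strand and read CTTCCGG here), and each is read 5′ to 3′ on the gene's strand, which is the minus strand for all 3, at chr5:115348959-115349208, chr5:108434400-108434649 and chr6:11907451-11907700.
Cox6a1: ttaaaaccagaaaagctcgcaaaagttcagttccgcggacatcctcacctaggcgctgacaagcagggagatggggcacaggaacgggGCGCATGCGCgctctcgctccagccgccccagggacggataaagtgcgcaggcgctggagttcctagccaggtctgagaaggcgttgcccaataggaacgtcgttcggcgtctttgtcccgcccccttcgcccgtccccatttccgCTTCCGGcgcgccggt
Atp5k: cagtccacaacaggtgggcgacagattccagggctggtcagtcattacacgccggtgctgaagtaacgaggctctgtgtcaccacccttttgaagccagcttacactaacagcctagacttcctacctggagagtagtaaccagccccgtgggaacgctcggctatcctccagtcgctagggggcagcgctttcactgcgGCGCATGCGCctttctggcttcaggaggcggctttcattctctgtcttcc
Ndufa4: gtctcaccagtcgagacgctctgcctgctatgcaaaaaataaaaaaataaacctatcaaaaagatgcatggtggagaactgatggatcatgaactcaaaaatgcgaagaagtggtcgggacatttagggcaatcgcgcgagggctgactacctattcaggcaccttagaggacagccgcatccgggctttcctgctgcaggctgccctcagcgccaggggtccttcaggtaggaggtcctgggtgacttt

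Levels of different genes were compared per length, as RPKM (counts scaled to a common library size and to gene length in kilobases), with the median over 17 libraries. The tested oxidative phosphorylation genes had a median of 54.5 RPKM, against 4.88 for all tested genes, and 16 of 82 were above 100 RPKM. Complex IV held the most abundant transcripts. Cox8a, a small subunit of the oxidase, stood at 425 RPKM (310 to 554 over the libraries), Cox6a1 at 318 (212 to 399), Cox6b1 at 304 (231 to 394) and Cox4i1 at 190 (143 to 252). By the median over its tested genes, complex IV stood at 92.3 RPKM, complex III at 80.7, complex V at 65.3, complex II at 61.2 and complex I at 38.0. Cytochrome c itself, the soluble carrier Cycs, stood at 17.3 RPKM (13.6 to 21.9). The ranges of genes within each complex were far wider than the steps between these medians.

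In complex I the level ran from 4.78 RPKM for Ndufa4l2 to 256 for Ndufa4 (185 to 364), followed by Ndufa6 at 146 and Ndufb9 at 130. Ndufa4 keeps the name of a complex I subunit, but its protein is known as a subunit of complex IV. In complex V the catalytic subunits Atp5a1 and Atp5b, the alpha and beta chains of the F1 head, led with 222 and 206 RPKM, and Atp5l, a membrane subunit, had 136. Complex III was led by Uqcr10 (142), Uqcrh (97.0) and Uqcr11 (96.2), 3 small subunits, while the large core proteins Uqcrc1 (50.5) and Uqcrc2 (57.5) had lower values. In complex II the flavoprotein Sdha stood at 97.4 RPKM and the membrane anchor Sdhd at 87.6, against 34.8 for Sdhc, the other anchor, and 34.2 for the iron-sulfur protein Sdhb. The table's gene length enters these values. It equals the length of all exons together in the GENCODE vM21 annotation, which may not be the authors' release, for 51 of the 86 genes and lies within 10% of it for 63. Ndufa4 has 492 bases in the table against 1381 of exons, Ndufa6 560 against 1801, Ndufb9 651 against 1031 and Atp5l 511 against 6443. The places of these genes in the order above therefore rest on the table's lengths. Ndufs1, the largest core subunit of complex I, has 8086 bases in both sources and 10.3 RPKM. Ndufb2, an accessory subunit, has 5628 bases in both and 7.37 RPKM. Gene length was not the same across these sets, with a median of 2178 bases for the 7 core genes of complex I and 1170 for its other 31.

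**Figure D1:**
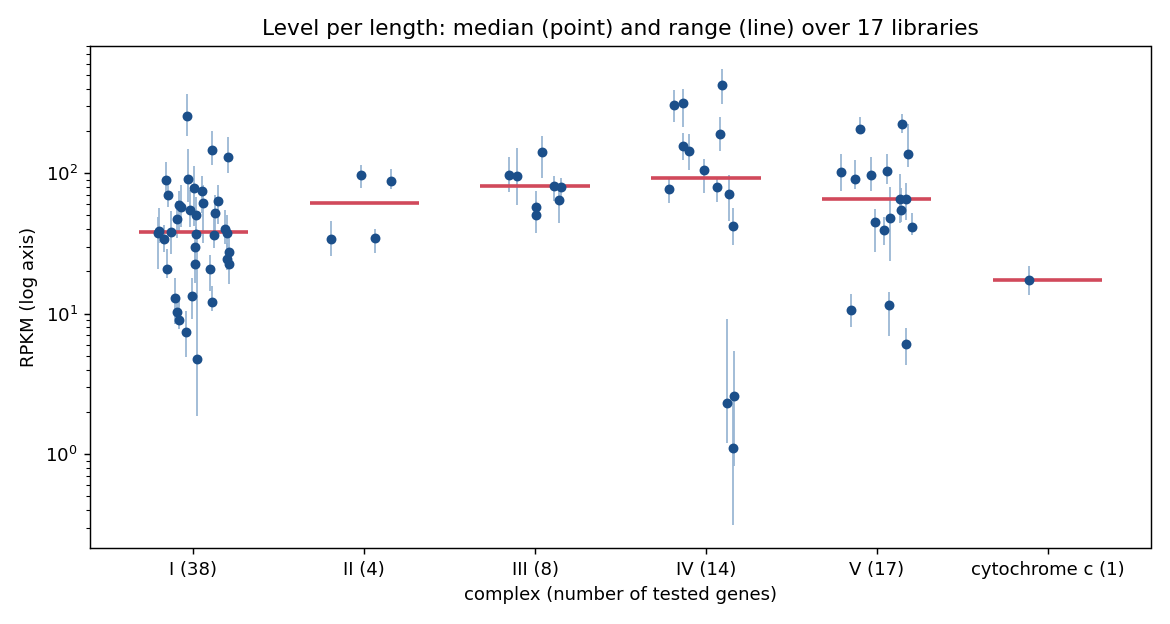
Level per length (RPKM, log axis) of the 82 tested genes by complex. Points are medians and thin lines the lowest to highest value over 17 libraries; thick lines are medians over the genes of a complex, which run from 17.3 for cytochrome c to 92.3 for complex IV. Most genes lie well above the median of 4.88 over all tested genes, and the lowest points are the tissue isoforms of complex IV and Ndufa4l2.

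Together the 86 genes took 0.878% of all counts in the median library. The lowest share was 0.725% in R62848_3 (95% Wilson interval 0.721 to 0.729, which covers counting error only) and the highest 1.06% in R62850_1, a 1.47-fold span, with an SD of 0.0994 percentage points over the 17 libraries. Library totals were 16400556 to 24152314 counts, so no interval was wider than 0.0048 percentage points to either side, and libraries differed by far more than counting error. The 3 libraries of R62850 are the only ones with a large load of pancreatic acinar enzyme transcripts (0.577%, 2.30% and 11.1% of counts for 11 genes, against 0.00405% to 0.0152% in the other 14). In R62850_3 the share was 0.803% of all counts and 0.903% without the acinar genes. All 8 cholangiocyte markers, the bile duct epithelium's own genes, were detected, at a summed 3668 to 5730 CPM (counts scaled to a common library size, not to length).

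Most members were high or low in the same libraries, by a modest amount. For 80 tested members (all but Ndufa4l2 and Cox4i2), each library's median deviation from the gene's median log2 CPM was −0.34 in R62848_2 and −0.38 in R62848_3, the lowest values, while R62848_1, which shares their code, had −0.04. The 3 R63500 libraries were also low, at −0.13, −0.16 and −0.15. The highest were R62850_1 at 0.30, R63494_2 at 0.22 and R63496_2 at 0.22. Libraries of one code were therefore not always alike: R62848_1 stood apart from R62848_2 and R62848_3, and R63494_1 (0.00) from R63494_2. It was negative in each complex in the lowest library: in R62848_3 it was −0.38 for complex I, −0.20 for II, −0.39 for III, −0.40 for IV and −0.31 for V.

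**Figure D2:**
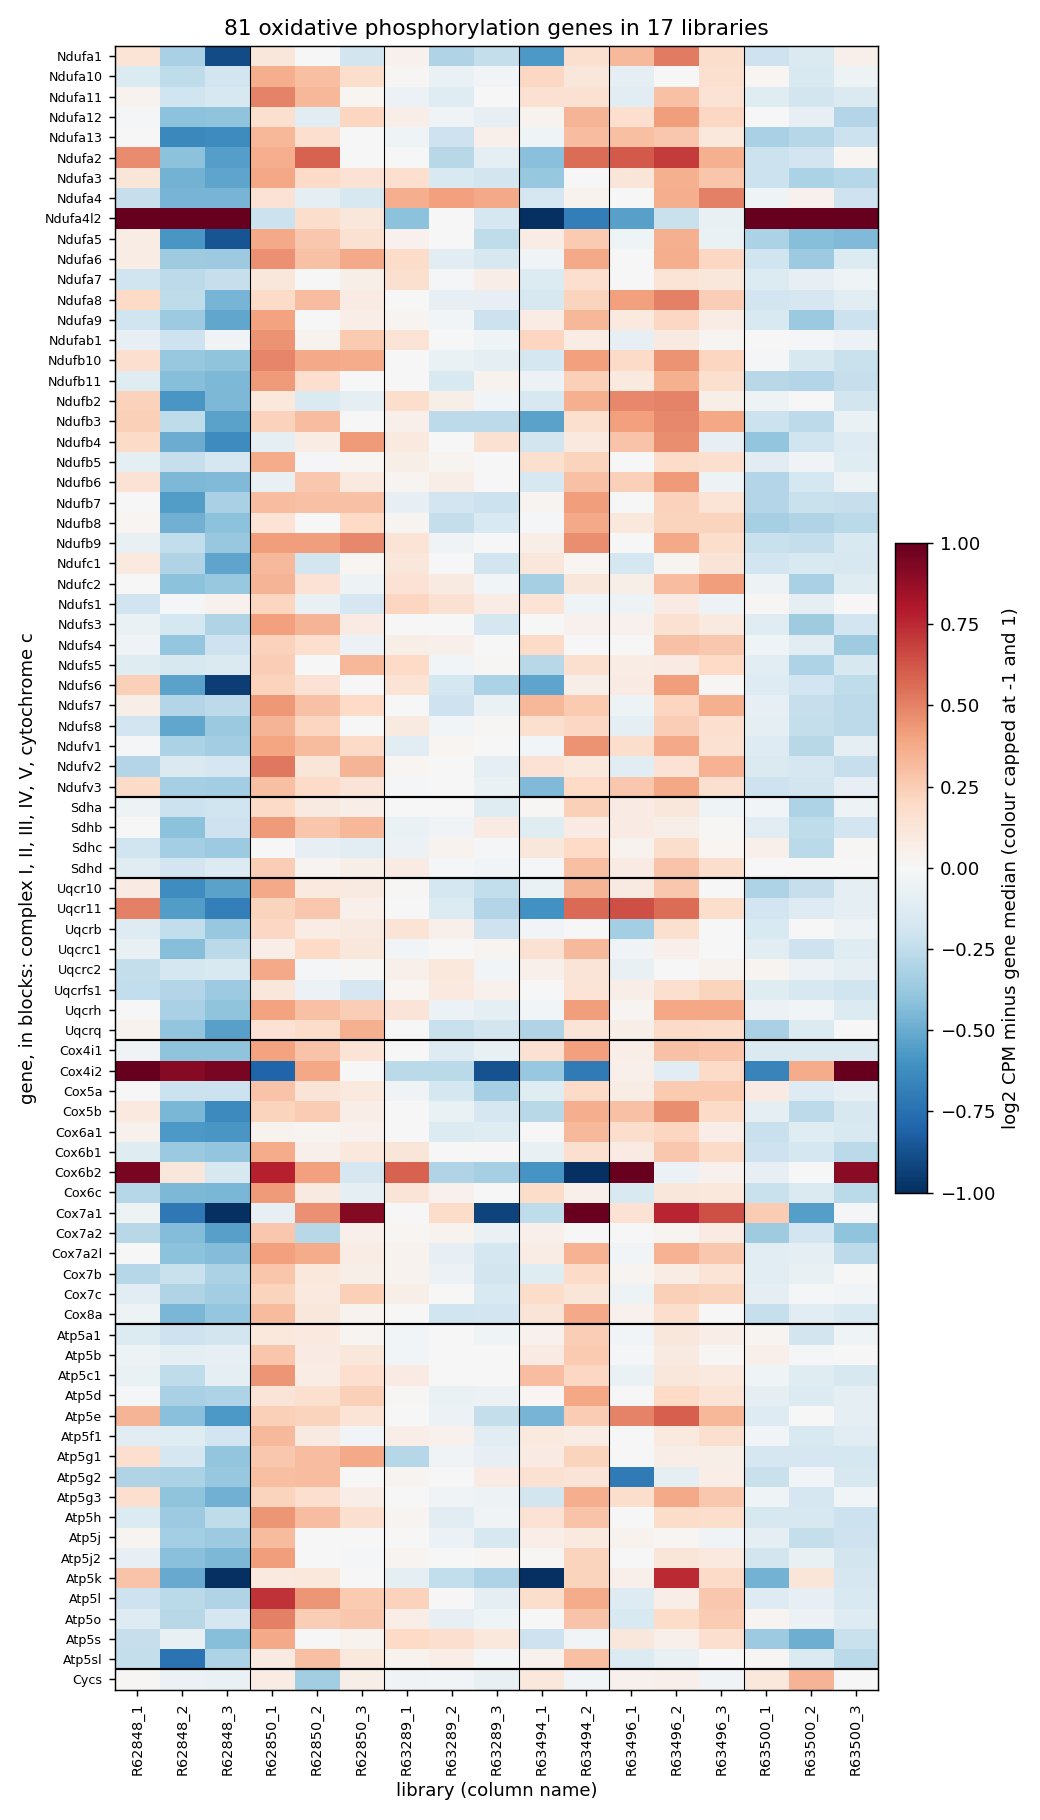
Deviation of log2 CPM from the gene's median (colour, capped at -1 and 1) for 81 of the 82 tested genes in rows, in blocks of complex I, II, III, IV, V and cytochrome c, and the 17 libraries in columns. Most rows are blue in R62848_2 and R62848_3 and red in R62850_1; Ndufa4l2 is red in all R62848 and R63500 libraries.

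Whether libraries with the same code resembled each other more than libraries of other codes was tested with edgeR's quasi-likelihood F test, Benjamini-Hochberg adjusted over all tested genes. At an adjusted p below 0.05, 56 of 82 members differed between codes, beside 42.2% of all tested genes. Few differed much. Only Ndufa4l2 and Cox4i2, 2 of 82, passed the test with code means more than 2-fold apart, beside 18.3% of all tested genes. The highest and lowest code means lay a median 0.53 apart in log2 CPM for the members and 0.71 for all tested genes. Among genes with at least 10 counts in every library the medians were 0.53 and 0.55, so only the members' median range was near that of other well counted genes. In that setting 64 of 80 members passed, beside 7541 of 15075 genes, and 2 passed with more than 2-fold, beside 2729. In the main fit, members other than Ndufa4l2 and Cox4i2 lay between 0.20 and 1.43. No member with a median above 10 CPM, of which there were 77, had code means 2-fold apart.

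**Figure D3:**
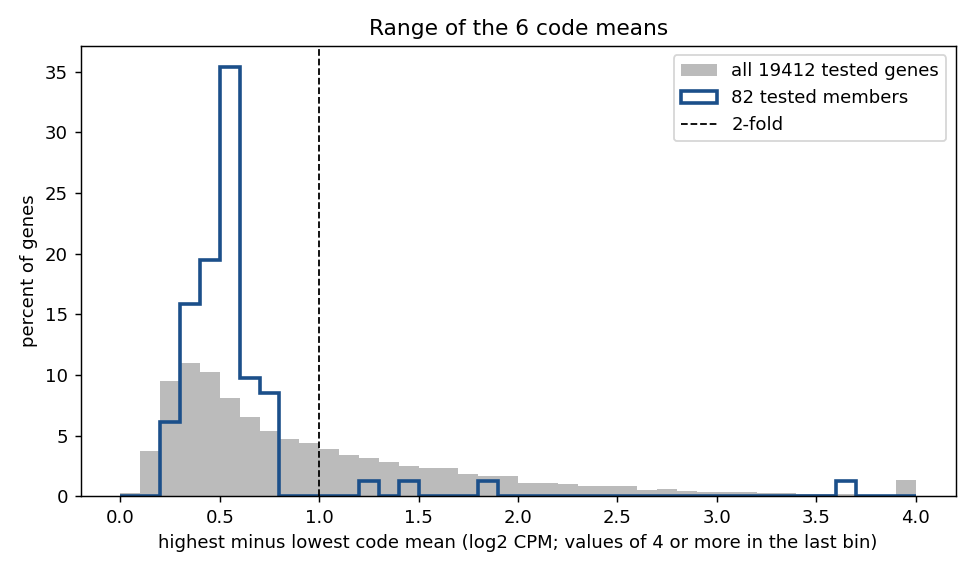
Highest minus lowest of the 6 code means (log2 CPM) as the percent of genes in bins of 0.1, for 82 tested members (line) and all 19412 tested genes (grey). The members crowd around their median of 0.53; the 4 beyond the dashed 2-fold line are Ndufa4l2, Cox4i2, Cox6b2 and Cox7a1.

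The code R62848 had the lowest mean for 67 of 82 members, against 18.65% of all tested genes, and 45 of the 82 both passed the test and were lowest there, beside 8.22% of all tested genes. Its mean was the highest for 2 members, both of which passed (beside 9.67% of all tested genes), Ndufa4l2 and Cox4i2. The low values rested on 2 libraries. R62848_2 and R62848_3 were the 2 lowest of 17 libraries for 49 of 82 members and for 4.54% of all tested genes. Without both, 22 of 82 members had their lowest mean in R62848, beside 21.1% of all genes then tested, and 43 members passed the test, 40 of them among the 56. At the other end, R62850 had the highest mean for 33 members, 27 of which passed (beside 8.08% of all tested genes), and R63496 for 28, 15 of which passed (beside 4.29%). R62850_1, the R62850 library with the least acinar RNA, was the highest single library for 37 members.

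Short genes in general were low in the same libraries. Among other protein-coding genes above a log2 CPM of 4, those under 700 bases had a median deviation of −0.26 in R62848_2 and −0.25 in R62848_3, while those of 3000 bases or more had 0.04 and 0.03. Members under 700 bases had −0.45 and −0.47 there, and members of 3000 bases or more had −0.23 and −0.20. In the shortest and the longest class, the members were thus lower than other genes of that class in these 2 libraries. The classes, and the trend removed below, use the table's lengths. These are shorter than all exons for some members, such as Atp5l (511 against 6443 bases) and Ndufa6 (560 against 1801). With each library's trend with gene length removed, an alternative added after seeing the data, the members' median deviations were −0.27 and −0.31, 64 of 82 had their lowest code mean in R62848 and 52 passed the test. No source used here gives RNA quality, and its part in the result was not tested.

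**Figure D4:**
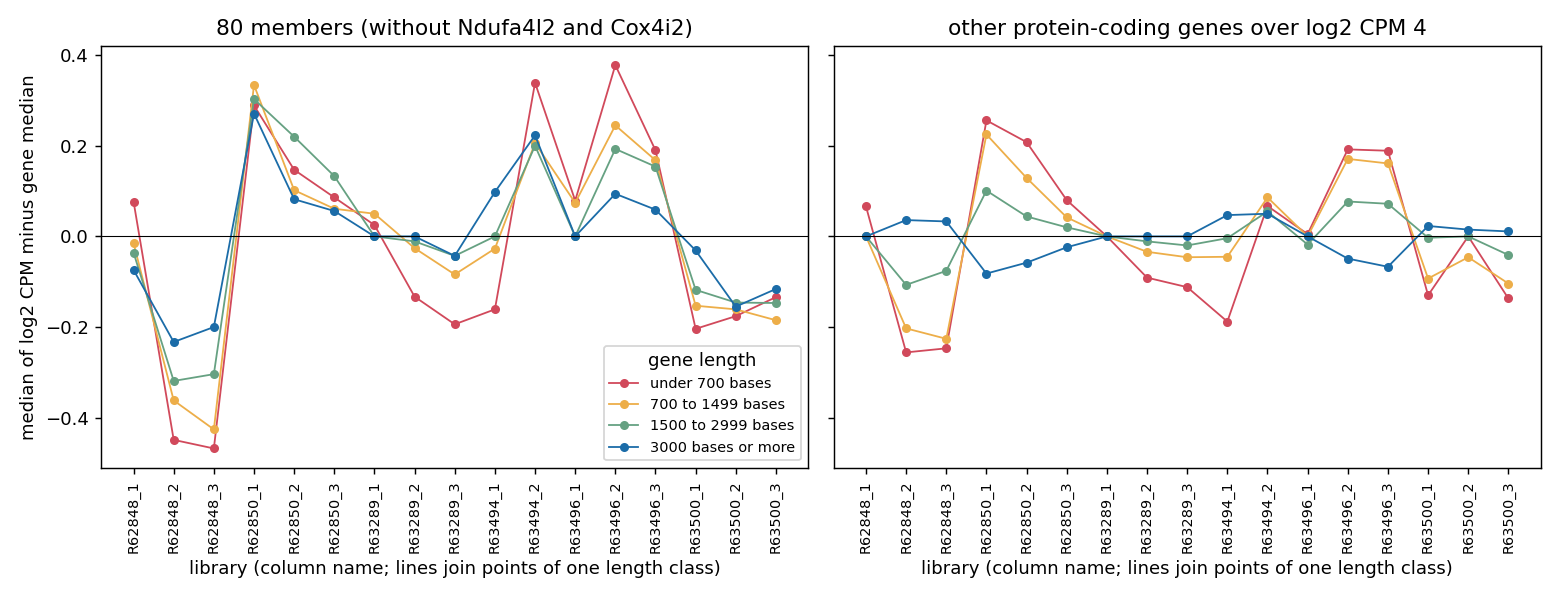
Median over genes of log2 CPM minus the gene's median, by library and gene length class, for 80 members (left) and other protein-coding genes (right). In R62848_2 and R62848_3 the shortest other genes lie near -0.25 and the longest near 0.04, while members of every class lie between -0.20 and -0.47.

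Complex I carries electrons from NADH through the 7 nuclear core subunits and is held together by many accessory ones. Of 38 tested genes, 28 differed between codes (73.7%, beside 42.2% of all tested genes), 6 of 7 core and 22 of 31 other genes. Among the core genes, 6 had their highest mean in R62850. Ndufv2, an iron-sulfur subunit of the NADH-oxidizing end, is an example chosen after its values were seen. Its CPM were 63.3, 69.8 and 69.0 in R62848, 111.9, 84.2 and 97.9 in R62850, 78.6, 77.4 and 72.9 in R63289, 85.6 and 83.2 in R63494, 72.1, 85.7 and 98.7 in R63496 and 69.9, 68.8 and 65.9 in R63500. The 6 libraries of R62848 and R63500 lay below all others, and the R62850 libraries overlapped those of R63496 and R63494 (1.45-fold between code means, edgeR adjusted p = 0.00172). Ndufs1 was the core gene that did not pass (adjusted p = 0.484), with 73.0 to 97.2 CPM and code means 1.15-fold apart, the smallest range of all members. The other genes of complex I had their highest mean in R63496 in 16 of 31 cases, against none of the 7 core genes, a difference that was not tested and that runs beside their shorter length.

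Among accessory genes, Ndufb9 had 65.1 CPM in R62848_3 as its lowest and 118 in R62850_3 as its highest value (1.60-fold between code means, adjusted p = 1.50e-04). Ndufa5 ran from 21.3 CPM in R62848_3 to 50.6 in R62850_1 (1.65-fold, adjusted p = 0.0155), and its call was lost without the code R62850 (adjusted p = 0.0605) or R63500 (0.0770). Ndufb2 did not pass (27.7 to 58.4 CPM, 1.53-fold, adjusted p = 0.142). Ndufa4 had 107.5, 91.5 and 91.1 CPM in R62848, 139.2, 118.4 and 113.1 in R62850, 162.3, 167.2 and 164.2 in R63289, 112.4 and 129.2 in R63494, 126.1, 162.4 and 179.2 in R63496 and 122.1, 130.1 and 109.5 in R63500. All R62848 libraries lay below every other library. Unlike most members, its highest mean was in R63289, whose 3 libraries lay close together. The code means lay 1.71-fold apart (edgeR adjusted p = 1.57e-04).

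All 4 genes of complex II had their lowest mean in R62848, and 3 of the 4 passed the test (beside 42.2% of all tested genes). Sdhb had 57.8 to 76.7 CPM in R62848 and 93.1 to 103.0 in R62850, with no overlap (1.46-fold between the highest and lowest code means, adjusted p = 8.38e-04), and the call was lost without R62850 (adjusted p = 0.0801). Sdhc (1.37-fold, adjusted p = 0.00838) and Sdhd (1.26-fold, 0.0361) passed, and both calls were lost without R62848_2 and R62848_3 (0.174 and 0.239). The call of Sdhd was also lost when any of 9 single libraries was left out, with the largest adjusted p at 0.111 without R62848_2. Sdha did not pass (adjusted p = 0.0700), with 305 to 445 CPM.

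Complex III was lowest in R62848 for all 8 tested genes, and 4 passed (50.0%), a share near the 42.2% of all tested genes. Uqcrc1, a core protein, had 155 to 198 CPM in R62848 and 232 and 261 in R63494 (1.41-fold, adjusted p = 0.00246), and Uqcrh, the hinge protein, differed 1.47-fold (0.00496). Cyc1, the cytochrome c1 subunit, which the naming rule leaves out, also passed (1.33-fold, adjusted p = 0.0219) and was lowest in R62848. Uqcr10 missed the threshold (1.46-fold, edgeR adjusted p = 0.0501), and passed with DESeq2 (0.00645) and limma (0.0305). Uqcrc2 did not pass (edgeR, 0.0814), nor did Uqcr11 (0.444).

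In complex IV 12 of 14 tested genes passed (85.7%, beside 42.2% of all tested genes). Cox4i1, the main form of the subunit COX4, had 287.0, 222.1 and 222.7 CPM in R62848, 388.0, 358.3 and 322.5 in R62850, 294.1, 269.5 and 279.8 in R63289, 326.1 and 390.1 in R63494, 308.7, 360.1 and 356.6 in R63496 and 266.1, 265.9 and 265.7 in R63500. R62848_2 and R62848_3 were lowest and R62848_1 lay among the R63289 libraries (1.47-fold between code means, adjusted p = 5.37e-04). Cox8a (1.46-fold, adjusted p = 0.00311), Cox6b1 (1.39-fold, 0.00122) and Cox7a2l (1.48-fold, 0.00376), which helps join complexes III and IV, were lowest in R62848 as well. Cox6a1, whose promoter is printed above, had 149 to 280 CPM (1.45-fold, adjusted p = 0.0201), and its call was lost without R62848_2 (0.0651) or R62848_3 (0.0670). Cox7a2 (1.37-fold, adjusted p = 0.00360) and Cox7b (1.34-fold, 0.00949) passed, but not without those 2 libraries (0.0525 and 0.0989).

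Genes of complex V were grouped by the name prefix Atp5 alone, whether or not each encodes a structural subunit. Of these, 9 of 17 tested genes passed (52.9%), a share near the 42.2% of all tested genes. Atp5l had 60.0, 57.5 and 56.2 CPM in R62848, 114.5, 94.5 and 83.4 in R62850, 81.5, 69.4 and 65.3 in R63289, 78.4 and 89.9 in R63494, 63.3, 72.7 and 83.7 in R63496 and 63.5, 65.7 and 62.5 in R63500. It was lowest in the 3 R62848 libraries and highest in R62850_1 and R62850_2 (1.67-fold between code means, adjusted p = 2.88e-04). Atp5b, Atp5f1 and Atp5a1 had the smallest ranges of the complex. Atp5b had 814 to 1057 CPM, with code means 1.19-fold apart (adjusted p = 0.107), Atp5a1 had 603 to 827 (1.25-fold, 0.0524, but 7.51e-04 with DESeq2 and 0.0354 with limma) and Atp5f1, the peripheral stalk subunit b, had 149 to 213 (1.21-fold, 0.0656). Atp5s, at a low level (6.07 RPKM, 6.40 to 11.7 CPM), did not pass (1.43-fold, adjusted p = 0.0593), nor did Atp5e, the epsilon subunit of the F1 part (77.0 to 173 CPM, 1.61-fold, 0.110). Cycs did not pass either (46.2 to 74.6 CPM, 1.17-fold, adjusted p = 0.455), and unlike the complexes it was highest in R63500.

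The c-ring of ATP synthase is built from one protein that 3 genes encode, differing only in the import signal. By the sum of their RPKM, Atp5g3 gave a median 54.0% (48.6% to 66.1% over the libraries), Atp5g2 37.6% (24.4% to 42.0%) and Atp5g1 8.68% (7.24% to 10.9%). These shares depend on the table's lengths, which are 4912 bases for Atp5g1, 1675 for Atp5g2 and 2181 for Atp5g3. By CPM, with no length, an alternative added after seeing the data, the medians were 52.6% (47.5% to 62.3%), 28.1% (17.7% to 31.6%) and 19.1% (16.3% to 23.2%) in the same order. Atp5g3 was the largest source in every library on both scales. The lowest share of Atp5g2, 24.4%, was in R63496_1, where its CPM was 45.8 against 70.2 and 78.2 in R63496_2 and R63496_3. Atp5g1 (adjusted p = 0.00584) and Atp5g2 (0.0160) passed the test between codes and Atp5g3 did not (0.0843); both calls were lost without R62850 (0.137 and 0.0720), and that of Atp5g2 also without R62848_2 and R62848_3 (0.104).

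The widest difference of all members was in Ndufa4l2, a paralog of Ndufa4 that is known as a target of the hypoxia-inducible factor HIF1 and as lowering complex I activity in low oxygen. The gene (ENSMUSG00000040280, chr10:127514939-127517152 on mm10) had 27.1, 28.6 and 33.1 CPM in R62848 and 22.6, 33.3 and 33.8 in R63500. In the other codes it had 3.95, 5.21 and 4.99 CPM (R62850), 3.44, 4.59 and 4.07 (R63289), 1.80 and 2.80 (R63494) and 3.12, 3.91 and 4.35 (R63496). The 6 libraries of R62848 and R63500 lay 4.33-fold or more above all 11 others. Code means spanned 12.6-fold, from R63494 to R62848 (adjusted p = 1.29e-11), and the call held under every alternative tried, with adjusted p-values up to 8.48e-09. In this gene R62848_2 and R62848_3 were not below R62848_1, unlike in the median over the other members. Some other members, such as Ndufv2 and Ndufs1, did not follow that median either.

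Relative to its paralog, Ndufa4l2 made up 11.5% to 15.7% of the summed RPKM of both genes in R62848 and 8.65% to 13.7% in R63500, against 0.813% to 2.21% in the 11 other libraries. These shares depend on the table's lengths, 492 bases for Ndufa4 and 960 for Ndufa4l2, against 1381 and 1095 for all exons in GENCODE vM21. By CPM, with no length, Ndufa4l2 had 33.1 beside 91.1 for Ndufa4 in R62848_3, a larger part than by RPKM. Even where its share was highest, Ndufa4l2 remained the minor form. Ndufa4l2 overlaps Shmt2, a mitochondrial serine hydroxymethyltransferase, on the genome, and no source used here says whether counting used strand. Shmt2 also passed the test (adjusted p = 2.66e-06), with 61.0 to 68.4 CPM in R62848 and 60.1 to 72.1 in R63500 against 32.6 to 49.4 in the other codes. Its part in the Ndufa4l2 counts was not tested.

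Cox4i2, the form of COX4 known from lung and from oxygen sensing cells and also known as a target of HIF1, was the other member past 2-fold. The gene (ENSMUSG00000009876, chr2:152754173-152765037 on mm10) had 7.25, 3.52 and 3.61 CPM in R62848, 1.001, 2.42 and 1.82 in R62850, 1.49, 1.49 and 0.948 in R63289, 1.38 and 1.08 in R63494, 1.89, 1.68 and 2.09 in R63496 and 1.10, 2.39 and 4.30 in R63500. R62848_1 was highest by far, and R63500_3 overlapped the R62848 range while R63500_1 was among the lowest. Code means lay 3.50-fold apart (edgeR adjusted p = 0.00713). The call was lost without R62848_1 (adjusted p = 0.0800) and without the code R62848 (0.320). Cox4i2 gave 0.505% to 4.73% of the RPKM summed over both COX4 genes, so Cox4i1 made up at least 95.3% in every library.

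**Figure D5:**
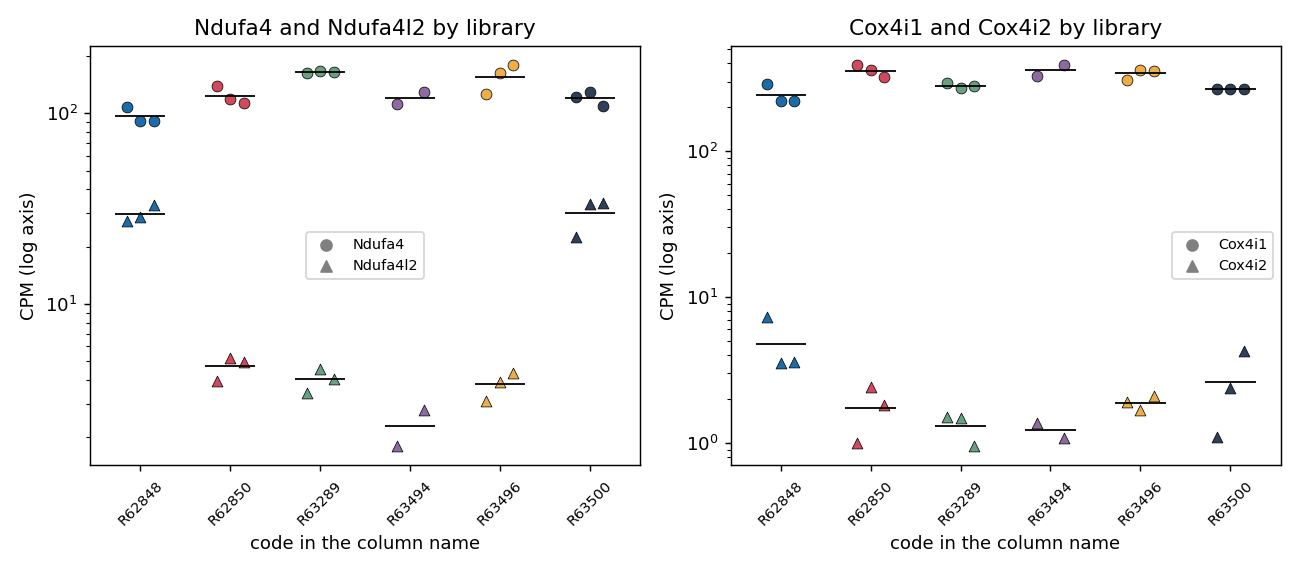
CPM (log axis) of Ndufa4 and Ndufa4l2 (left) and Cox4i1 and Cox4i2 (right) in each library, by the code in the column name; horizontal lines are code means. Ndufa4l2 (triangles) lies between 22.6 and 33.8 in the 6 libraries of R62848 and R63500 and at most at 5.21 elsewhere, while Cox4i2 overlaps between codes.

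Summed over their list, genes of glycolysis and of the HIF response were high in the same 2 codes. All 22 tested genes of that list passed the test (beside 42.2% of all tested genes), 11 of them with code means more than 2-fold apart (beside 18.3%). Of the 22, 15 were highest in R62848 (beside 9.67%) and 6 in R63500 (beside 1589 of 19412 tested genes that passed and were highest there). Their summed level was 7834 to 8338 CPM in R62848 and 7389 to 8658 in R63500, against 4721 to 5676 in the other codes. Not every gene followed the sum. Epas1 was highest in R63494 (mean 154.5 CPM) and lowest in R63500 (120.3). Gapdh had 896.8 in R62848 against 914.0 in R62850, and Hk1 had 83.45 in R63500 against 89.64 in R63289. The widest were Bnip3, a mitophagy receptor, which spanned 4.43-fold (adjusted p = 4.46e-10), and Slc16a3, the lactate exporter MCT4, which spanned 3.96-fold (6.47e-07). Markers of other cell types also differed between these libraries and the rest, not all in one direction. Pericyte and smooth muscle markers (5 of 9 passed, none at 0 in all libraries) summed to 478.9 to 519.1 CPM in R62848, 310.1 to 437.1 in R63500 and 250.8 to 381.8 elsewhere, and Abcc9 (5.02-fold, adjusted p = 2.00e-11) and Kcnj8 (4.65-fold, 9.11e-08) of that list were highest in R62848. The R63500 sum thus overlapped that of the other codes, and 2 smooth muscle genes of the list, Myh11 (adjusted p = 0.0804) and Cnn1 (0.286), did not pass and had their highest mean in R62850. Fibroblast and matrix markers (6 of 6 passed) summed to 9491 to 10260 CPM in R62848, 9146 to 11160 in R63500 and 2507 to 6089 elsewhere. Col1a1, Col1a2 and Col3a1 made up most of that sum, at mean CPM of 2967, 2982 and 3175 in R63500, where Dcn, another matrix gene of the list, had 583.9, below its 694.3 in R62850, 720.7 in R63289 and 613.8 in R63496. Endothelial markers (4 of 5 passed) summed to 274.6 to 297.5 CPM in R62848, 218.2 to 239.3 in R63500 and 107.9 to 159.8 elsewhere. Tek, the one that did not pass (edgeR adjusted p = 0.391), had its lowest mean in R63500. Erythroid markers (5 of 5 passed, all highest in R62848) summed to 300.1 to 312.7 CPM in R62848, 119.2 to 147.2 in R63500 and 50.16 to 109.7 elsewhere. Other lists had low sums there. Gastric parietal markers (2 of 2 tested passed) summed to 228.5 to 237.9 CPM in R62848, 197.3 to 275.0 in R63500 and 278.9 to 475.5 elsewhere, mostly Kcnq1. Hepatocyte markers (3 of 5 passed) summed to 157.4 to 284.7 CPM in R62848, 263.2 to 408.0 in R63500 and 333.5 to 843.9 elsewhere. Ttr made up most of that sum, and only Ttr of these 5 had its lowest mean in R62848. Alb, another of the 5, had a mean of 14.22 CPM in R62848 and 16.21 in R63289. Its means were lower in the other codes, at 3.348 in R62850, 3.841 in R63494, 3.983 in R63496 and 1.784 in R63500. Neutrophil markers (5 of 5 passed, 4 of them highest in R62848) separated R62848 from R63500. They summed to 902.2 to 1607 CPM in R62848, 258.0 to 467.7 in R63500 and 565.4 to 1533 elsewhere. Their part in the result was not tested. In bulk tissue, a different share of cells of a type and a different amount of RNA per cell cannot be told apart.

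Other tissue forms of complex IV were at low levels. Cox7a1, the heart and muscle form, gave 1.13% to 4.90% of the RPKM summed with Cox7a2, and Cox6b2, the testis form, 0.0914% to 0.843% with Cox6b1. Neither passed the test (adjusted p = 0.284 and 0.264), although their code means lay 2.34-fold and 2.70-fold apart at 0.301 to 1.98 and 0.344 to 2.73 CPM. The muscle forms Cox6a2 and Cox8b had at most 9 and 6 counts in a library, the testis form Cox7b2 at most 4, and Cox8c none; these 4 were left out by the filter on low counts. Striated muscle markers summed to 17.4 to 32.3 CPM, with Myh4 and Myh7 at 0 in all libraries, and testis germ cell markers to at most 1.21 CPM, with Acrv1 at 0.

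Some members varied widely within codes as well as between them. The largest SDs of log2 CPM within codes among members above a median of 10 CPM were 0.44 for Atp5k, 0.40 for Uqcr11, 0.36 for Ndufa2, 0.32 for Ndufs6 and 0.30 for Ndufa1, against a median of 0.15 over all tested members. Their lengths were 419 to 641 bases, and Ndufs6 is named here because of these values. The next was Atp5e (0.27), with a length of 1756 bases. Other members under 700 bases in this range of CPM had SDs near the median or above it. These were Cox6b1 (0.12), Cox5a (0.13), Cox8a (0.14), Ndufb9 (0.14), Ndufa4 (0.16), Atp5l (0.16), Ndufa6 (0.19), Uqcr10 (0.22) and Ndufb6 (0.22). These lengths are the table's. By all exons in GENCODE vM21, Ndufs6 has 898 bases, Ndufb9 1031, Ndufa4 1381, Ndufa6 1801, Cox5a 2101 and Atp5l 6443. The ranges between code means of Atp5k (0.74), Ndufa2 (0.72), Uqcr11 (0.71) and Ndufa1 (0.70) were also wide for members, whose median was 0.53. Uqcr11, a complex III subunit, had 87.6, 41.8 and 38.3 CPM in R62848, 71.8, 74.2 and 63.7 in R62850, 61.7, 56.2 and 50.3 in R63289, 40.5 and 91.6 in R63494, 96.4, 91.1 and 69.7 in R63496 and 53.9, 56.4 and 57.9 in R63500. It thus differed more than 2-fold between libraries of one code. Atp5k was low in the same libraries, with 35.9, 20.8 and 14.5 CPM in R62848 and 14.6 and 34.4 in R63494. None of the 5 passed the test between codes, and their adjusted p-values ran from 0.168 for Ndufa1 to 0.474 for Atp5k. Without R62848_1, Uqcr11 and Ndufa2 passed with code means more than 2-fold apart. Other protein-coding genes under 700 bases had median deviations of 0.07, −0.26 and −0.25 in R62848_1, R62848_2 and R62848_3 and of −0.19 and 0.07 in R63494_1 and R63494_2.

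Genes that serve the same machinery were also read from lists. All shares here are to be read beside the 42.2% of all tested genes that passed and the 18.65% that were lowest in R62848. Enzymes of the citric acid cycle and pyruvate dehydrogenase passed in 8 of 16 cases (50.0%), none past 2-fold, and 13 of 16 were lowest in R62848. Suclg1, a subunit of succinyl-CoA ligase, had the widest range (1.49-fold, adjusted p = 9.80e-05), then Ogdh (1.44-fold, 0.00309). Proteins of the mitochondrial ribosome, which translates the mitochondrially encoded subunits, passed in 26 of 77 cases (33.8%), with 44 lowest in R62848, the widest being Mrps6 (1.74-fold, 0.00671). Assembly factors passed in 13 of 42 cases (31.0%), with Cox18, which inserts a complex IV core subunit into the membrane, widest at 1.93-fold (0.00102). Import components passed in 5 of 23 cases (21.7%) and factors of mitochondrial DNA upkeep and transcription in 2 of 11 (18.2%). Of 12 regulators of mitochondrial biogenesis 4 passed (33.3%), 2 of them past 2-fold. These were Esrrg, an orphan nuclear receptor, at 15.5 to 47.4 CPM (2.35-fold, adjusted p = 2.11e-05, highest in R63494), and Ppargc1a, the coactivator PGC-1alpha, at 3.24 to 10.7 CPM (2.16-fold, 0.0219, highest in R63289). Neither was lowest in R62848, but both had low means there. Esrrg had 20.8 CPM in R62848 and 17.9 in R63500, against 29.2 to 42.1 in the other codes. Ppargc1a had 5.62 in R62848 and 4.42 in R63494, against 6.46 to 9.68 in the other codes.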

How the data were processed

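Whole-number read counts per gene, not normalized, were taken as the authors deposited them, with 17 count columns. A further 17 per-library columns in another unit were not used here. Gene length, another number per gene, is the authors' own deposited column and served only for levels per length. Per the submitters' processing notes, STAR 2.6.1c, featureCounts, edgeR 3.40.2 and mm10 are named, with no role or order stated. Of the annotation release and the strandedness of counting, the sources used here say nothing. Counts of genes that overlap or have near-identical copies are therefore uncertain: 30 of the 86 genes overlap another gene of the table, 19 of them a protein-coding one.

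Counts were analysed with edgeR 4.0.16 in R 4.3.3: filterByExpr with the code as group, TMM factors, log2 CPM with a prior count of 2, and a robust quasi-likelihood F test over 6 codes, Benjamini-Hochberg adjusted over all tested genes. Folds between code means are on that log2 CPM scale, and no conditions enter. On simulated data for this comparison (18941 genes tested) it recovered 52% of 100 genes changed 1.5-fold and 92% of 100 changed 2-fold, with 6 false calls. RPKM were computed from counts, gene length and TMM effective library sizes. Alternatives used DESeq2 1.42.0, limma 3.58.1, other factors and filters, libraries or codes left out, and a length offset by loess. Members and gene lists were chosen with earlier results of these data known. Members were named by rule: the 3 highest and 2 lowest by RPKM in each complex, the 12 with the widest range between codes, the 5 narrowest that did not pass, the isoform sets and the genes left out by the filter. For some lists the widest genes were named, and for others none. Not every exception is marked. Epas1, Gapdh, Hk1, Dcn, Tek, Myh11 and Cnn1, among others, were named outside the rule. Library totals had a median of 17886041 counts. The lists had 7 genes with no row of that name. Protein sequences were not used here. The values of 1 gene, taken alone, are not reported here.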

Additional observations from a re-analysis of the deposited data

How the results depend on the processing

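The number of members that differed between codes was 56 and stayed within 1.5 times of that under every alternative run, from 43 (without R62848_2 and R62848_3) to 68 (DESeq2), and from 46 to 66 when single libraries were left out. Of the 56, 43 kept the call in each of those 17 fits and 13 lost it in 1 or more. Of the 26 members that did not pass, 14 passed under 1 or more alternatives other than leaving out a single library, among them 12 with DESeq2, 3 with limma and 11 without the code R63494. The number past 2-fold was 2, fell to 1 (Ndufa4l2) without the code R62848, and was 2 to 3 with single libraries left out. The number lowest in R62848 was 67, with 51 to 73 when single libraries were left out, and 22 without R62848_2 and R62848_3, an alternative added after seeing the data. The median, lowest and highest share of counts moved by less than the spread between libraries (SD 0.0994). The share in R62850_3, 0.803%, was however 0.903% without acinar genes and 0.946% of the TMM effective size. Levels per length were not recomputed with the annotation's exon lengths, which differ widely for some genes, such as Atp5l (511 bases in the table against 6443). Levels in the deposited normalized unit were planned but not run. No result reversed. No paired analysis was possible because the labels give a single group. The missing meaning of the codes, 2 or 3 libraries per code and counts that cannot be tied to animals limit every statement between codes, and Cox4i2, Cox6b2 and Cox7a1, all below 10 CPM, had the widest spread within codes.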
